A study of Mus musculus with 9 samples.

Results

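The 10 genes described here encode molecules that guide the axons of olfactory sensory neurons (OSNs) or sort them into bundles: the receptors Nrp1, Nrp2, Plxna1 and Robo2, the ligands Sema3a, Sema3f and Efna5, and the adhesion molecules Kirrel2, Kirrel3 and Ncam2. They were chosen by name as a functional group, and all 10 of the 24421 gene rows of the count table were found and passed the filter on low counts, which 20213 genes passed. The libraries were made from whole main olfactory epithelium (MOE), in which the OSNs lie, of 9 mice. The labels give these as C57BL/6 of postnatal day 14, whereas the reporting summary of the study describes a mixed background and an older age for this line, and which of these holds was not resolved. There were 3 wild type, 3 heterozygous and 3 homozygous littermates for a CRISPR-Cas9 deletion of TAAR enhancer 1, a noncoding element in the cluster of trace amine-associated receptor (Taar) genes on chromosome 10. The deletion is germline, was kept as a single established line, and is therefore carried by every cell of the tissue.

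OSNs that express the same receptor gene send their axons from the epithelium to the same glomeruli of the olfactory bulb. The receptor that a neuron expresses sets the level of several guidance molecules in it, so that neighbouring glomeruli receive axons with unlike levels. Neuropilins bind secreted class 3 semaphorins and signal through plexins, Robo receptors bind Slits, and ephrins bind Eph receptors on opposing membranes, while Kirrel and Ncam2 proteins hold like axons together or mark regions of the epithelium. TAAR neurons are a small share of OSNs, and each comparison asks whether the level of these genes in the whole tissue differed with the genotype of the enhancer.

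Library depth and tissue makeup were checked first. Each library held 24583906 to 32631951 reads in genes, and Taar2 to Taar5, which lie beside the deleted element, summed to 227 to 337 reads per wild type library, 158 to 176 per heterozygous library and 1 to 3 per homozygous library. Markers of mature OSNs summed to 8281 to 8388 CPM (reads of a gene scaled to a common library size) in wild type, 8399 to 8951 in heterozygous and 8551 to 9220 in homozygous libraries, and 9 of 10 of them were higher in homozygous than in wild type mice, with 0 passing the adjusted test. Of the 20213 genes tested, 10063 were higher and 10149 lower in that comparison. Vomeronasal receptor genes, which belong to another sense organ of the nose, were high in 3 libraries. They summed to 67.5 CPM in heterozygous replicate 1, to 120.0 and 69.7 CPM in homozygous replicates 2 and 3, and to 14.6 to 17.4 CPM elsewhere. Leaving out these 3 libraries leaves homozygous replicate 1 as the only homozygous mouse, and such values are given without a test. In whole tissue, fewer cells of a type and less RNA per cell cannot be told apart.

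The genes differ widely in size and in the sequence at their start. Kirrel2 spans only 10.157 kb of chromosome 7 (chr7:30447534-30457690, minus strand of GRCm38), whereas its paralog Kirrel3 spans 550.823 kb of chromosome 9 (chr9:34485894-35036716, plus strand). Efna5 lies on the minus strand of chromosome 17 (chr17:62604184-62881317) and has 5 exons after merging its transcripts. The promoters of Kirrel2 and Efna5 are shown because these genes varied most among the 9 libraries. They are the RefSeq sequences for GRCm38.p6 from 250 bases before to 50 bases after the gene's start, 5′ to 3′ on the gene's strand, at chr7:30457466-30457765 and chr17:62881268-62881567, with each CpG pair in capitals. The RefSeq start of Kirrel2 lies inside the gene as annotated above, so its window begins closer to that annotated end than the Efna5 window does.
Kirrel2: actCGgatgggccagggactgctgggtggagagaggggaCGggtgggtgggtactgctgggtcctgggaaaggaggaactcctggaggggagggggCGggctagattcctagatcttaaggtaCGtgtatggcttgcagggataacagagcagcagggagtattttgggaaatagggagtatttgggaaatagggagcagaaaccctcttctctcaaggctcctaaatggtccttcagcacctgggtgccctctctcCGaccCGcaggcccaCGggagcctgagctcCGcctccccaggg
Efna5: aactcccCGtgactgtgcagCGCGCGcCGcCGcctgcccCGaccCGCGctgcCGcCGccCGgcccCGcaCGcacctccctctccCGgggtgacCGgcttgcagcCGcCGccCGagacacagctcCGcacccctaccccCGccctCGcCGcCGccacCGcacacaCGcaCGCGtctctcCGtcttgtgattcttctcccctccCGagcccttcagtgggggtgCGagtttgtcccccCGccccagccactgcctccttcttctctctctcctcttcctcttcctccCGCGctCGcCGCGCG
The Kirrel2 promoter holds 8 CpG pairs at a GC content of 59.7%, near the median of 7 pairs and 52.7% over 32851 mouse promoters. The Efna5 promoter is rich in CpG, with 38 pairs at 73.3% GC. RefSeq promoters were found for 7 of the 10 genes, and their 9 promoters ranged from 2 CpG pairs (Sema3a) to 41 (Ncam2). The Sema3a window (chr5:13396534-13396833) lies inside the annotated gene, which starts at base 13125414. Robo2 has several windows. Those at chr16:75447244-75447543 and chr16:75092721-75093020 lie outside its annotated gene, which ends at base 74411825.

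A search of these 9 promoters on both strands looked for 3 motifs: an Olf/Ebf (O/E) motif written as TCCC and GGGA parted by any 2 bases, the homeodomain core TAATTA, and the cyclic AMP response element TGACGTCA. O/E factors and the homeodomain protein Lhx2 act in OSNs, and cyclic AMP signalling sets Nrp1 and Kirrel2 levels in OSNs. No motif occurred in any of the 9, against 0.904%, 5.29% and 1.79% of all promoters. This says only that these letters are not in these windows. None of the 3 motifs contains another.

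Within wild type mice, levels per length were compared as CPM per kilobase of merged exons. Kirrel2, a homophilic adhesion protein whose level in an OSN follows the neuron's activity, was the highest at 148 ± 22.0 CPM per kb (SD, n = 3), above 99.2% of 19390 genes. Plxna1, a signalling partner of neuropilins, followed at 52.2 ± 2.67 CPM per kb. Nrp2 (23.9 ± 0.426) and Efna5 (23.3 ± 1.23 CPM per kb) came next, and their wild type libraries overlapped, so these neighbours could not be ordered.

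The lower part of the order was separated at every step in wild type libraries, given these merged exon lengths. Other lengths were not tried. Sema3f, a secreted ligand of Nrp2, stood at 18.3 ± 0.189 CPM per kb, Nrp1 at 12.6 ± 0.626 and Kirrel3 at 11.4 ± 0.484. Robo2, a receptor for Slits, stood at 9.26 ± 0.281 CPM per kb, and Ncam2, an adhesion molecule that marks part of the epithelium, at 7.33 ± 0.416. Sema3a, the secreted ligand of Nrp1, was the lowest at 3.24 ± 0.0968 CPM per kb, above 45.0% of genes. Each ligand of the neuropilins was thus below its receptor per length.

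**Figure D1:**
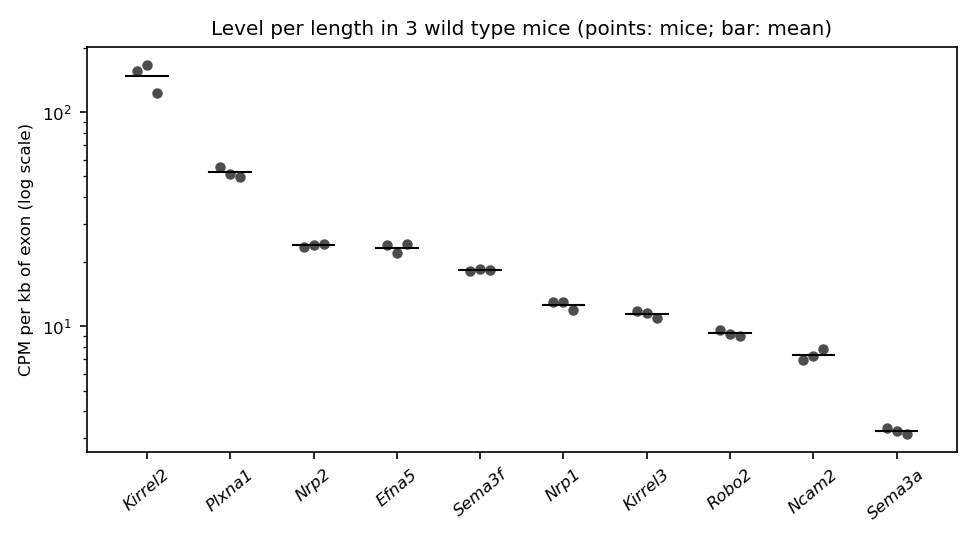
Level of each gene per kilobase of merged exons (CPM per kb, log axis) in the 3 wild type libraries, ordered by the mean. Kirrel2 stands at 123 to 165 and Sema3a at 3.14 to 3.34.

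Spread among mice also differed between the genes. Over all 9 libraries the coefficient of variation was 10.6% for Kirrel2 and 9.32% for Efna5, against a median of 5.54% over 11606 genes with a mean of at least 10 CPM, and 6.98% and 11.3% of those genes varied more. The other 8 genes varied by 3.50% (Robo2) to 5.26% (Kirrel3), below that median. Between 1076 reads (Sema3a) and 21275 reads (Kirrel2) were counted per gene and library, and counting alone gives an error of at most 3.05% for Sema3a and 0.912% for Kirrel2.

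No gene of the 10 passed an adjusted p of 0.05 in edgeR's quasi-likelihood test in any comparison. In homozygous against wild type mice, 0 of 10 passed, where 0.0495% of all genes did; 2 of 10 had an unadjusted p under 0.05, where 9.26% of all genes did; and 2 of 10 had libraries that did not overlap, where 15.4% did. In heterozygous against wild type mice the counts were 0 of 10 (0.00495% of all genes), 0 of 10 (3.25%) and 1 of 10 (8.68%). In homozygous against heterozygous mice they were 0 of 10 (0.114%), 1 of 10 (10.4%) and 2 of 10 (14.1%). For any difference among the 3 genotypes, 0 of 10 passed the adjusted test, against 0.0643% of all genes, and 1 had an unadjusted p under 0.05, against 8.45%. Each count lies within 2 genes of what the share over all genes gives for 10. DESeq2 with default settings also called 0 of 10 in both comparisons with wild type mice. It called 63 of all genes in homozygous and 3 in heterozygous mice there. In homozygous against heterozygous mice it called 130 of all genes, and 1 of the 10, Efna5, was among them.

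Each interval holds for a single gene and comparison, not for all of them jointly, and for the level in the whole tissue. A change confined to TAAR neurons, a small share of OSNs, could be larger than its interval. In homozygous against wild type mice, the 95% intervals of the change reached from -15.4% (Kirrel2) to 23.6% (Efna5), and those of 8 genes included no change. In heterozygous against wild type mice they reached from -12.4% (Sema3a) to 23.9% (Kirrel2), and all 10 included no change. Between homozygous and heterozygous mice they reached from -21.9% (Kirrel2) to 29.5% (Efna5), and 9 included no change. Against wild type, the log2 fold changes of the 10 genes had their median at 0.015 when homozygous and 0.013 when heterozygous, and 0.00091 in homozygous against heterozygous mice. Over all genes tested the medians were -0.00057, 0.0033 and -0.0017.

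**Figure D2:**
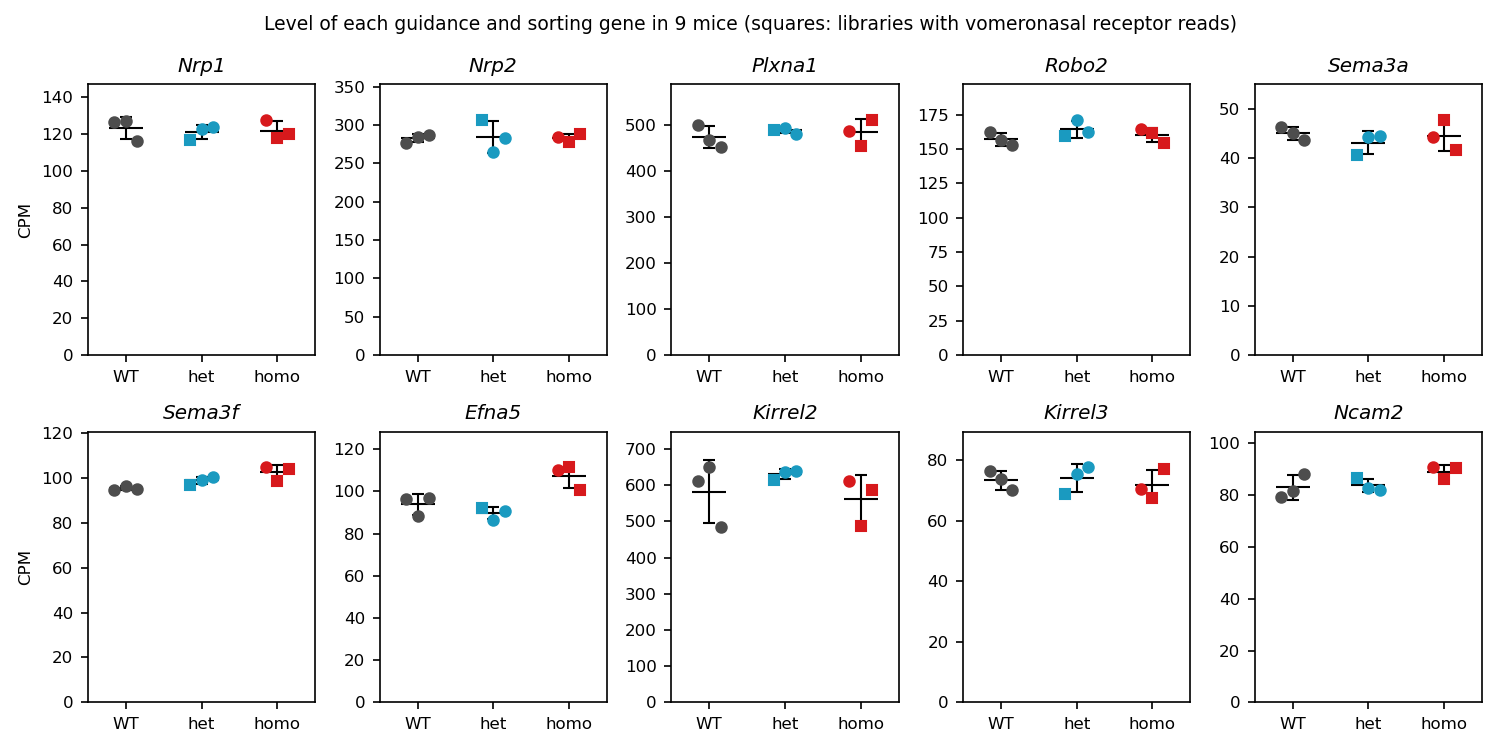
Level of each of the 10 genes in every library (CPM, 3 mice each of wild type, WT, heterozygous, het, and homozygous, homo), with the mean and SD of each genotype as bars and the 3 libraries with vomeronasal reads as squares. Efna5 in the homozygous mice (100.4 to 111 CPM) lies above all other libraries, and the genotypes of most other genes overlap.

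Among the receptors, Nrp1, which binds Sema3a and whose level in OSN axons orders them along the anterior to posterior axis of the bulb, measured 126, 127 and 116 CPM in wild type, 117, 122 and 124 in heterozygous and 128, 118 and 120.0 in homozygous mice. The 3 genotypes overlapped throughout. The log2 fold change was -0.02 (SE 0.05) in homozygous and -0.03 (SE 0.05) in heterozygous mice against wild type, with edgeR adjusted p of 0.956 and 1.00. The homozygous interval ran from -8.13% to 6.34%.

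Nrp2, which binds Sema3f and marks axons bound for the ventral bulb, measured 277, 285 and 287 CPM in wild type, 307, 265 and 283 in heterozygous and 284, 278 and 289 in homozygous mice. Heterozygous mice held both the highest and the lowest library. The homozygous change was 0.0035 on the log2 scale (SE 0.05, 95% interval -7.02% to 8.07%), and the heterozygous change was 0.01 (SE 0.05).

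Plxna1 measured 499, 466 and 452 CPM in wild type, 489, 493 and 480.0 in heterozygous and 485, 454 and 510.2 in homozygous mice. All genotypes overlapped, with a log2 fold change of 0.03 (SE 0.05) in homozygous and 0.04 (SE 0.05) in heterozygous mice against wild type. Of its exon bases, 970 (10.7%) are shared with an antisense gene, Gm26811, which has no row in the table. Since the strand setting of the counting is not given in the sources used here, reads of that part cannot be told apart.

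Robo2, which is needed for the routing of dorsal OSN axons, measured 162, 156 and 153 CPM in wild type, 159.7, 171 and 162 in heterozygous and 164, 162 and 154 in homozygous mice. The highest library was heterozygous and the groups overlapped. The log2 fold change against wild type was 0.03 (SE 0.05) in homozygous and 0.06 (SE 0.05) in heterozygous mice. Robo2 had the smallest spread of the 10 genes.

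Among the ligands, Sema3a measured 46.3, 45.0 and 43.6 CPM in wild type, 40.5, 44.3 and 44.5 in heterozygous and 44.2, 47.7 and 41.6 in homozygous mice. Homozygous mice spanned the whole wild type range. The log2 fold change against wild type was -0.01 (SE 0.06) in homozygous and -0.06 (SE 0.06) in heterozygous mice.

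Sema3f, which is released by early arriving dorsal axons and repels axons with Nrp2, measured 94.5, 96.4 and 95.0 CPM in wild type, 97.0, 99.2 and 100.2 in heterozygous and 105, 98.4 and 104 in homozygous mice. Every heterozygous and homozygous library was above every wild type library, while heterozygous and homozygous libraries overlapped. The homozygous difference from wild type was 7.44% (log2 0.10, SE 0.04, 95% interval 1.02% to 14.3%), with an unadjusted p of 0.0253 and an edgeR adjusted p of 0.475. The heterozygous difference was 3.66% (log2 0.05, SE 0.04, interval -2.53% to 10.2%). Without the 3 libraries with vomeronasal reads the log2 difference of the remaining homozygous mouse was 0.14.

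Efna5 encodes ephrin-A5, a membrane-anchored ligand of EphA receptors that is found on OSN axons at levels that differ between receptor types. It measured 96.5, 88.2 and 97.0 CPM in wild type, 91.9, 86.5 and 90.5 in heterozygous and 110.2, 111 and 100.4 in homozygous mice. All 3 homozygous libraries were above all 6 others, and wild type and heterozygous libraries overlapped. The genotype means were 93.9 ± 4.96, 89.6 ± 2.78 and 107 ± 6.05 CPM (SD, n = 3).

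The homozygous level of Efna5 was 14.4% above wild type (log2 0.19, SE 0.05, 95% interval 5.89% to 23.6%). Its unadjusted p of 0.00207 ranked 122 among 20213 genes, and the edgeR adjusted p was 0.332. Against heterozygous mice the difference was 19.8% (log2 0.26, SE 0.05, interval 10.9% to 29.5%), with an unadjusted p of 0.00016, rank 33, and an adjusted p of 0.0973. The heterozygous difference from wild type was -4.5% (log2 -0.07, interval -11.6% to 3.21%). For any difference among the 3 genotypes the unadjusted p was 0.000422 and the adjusted p 0.179.

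The call for Efna5 between homozygous and heterozygous mice depended on the processing. DESeq2 with default settings gave an adjusted p of 0.00286, DESeq2 without independent filtering 0.00387, edgeR with no filter on low counts 0.0372, and edgeR without heterozygous replicate 3 gave 0.0455. In the other settings with at least 2 mice per genotype, the adjusted p lay between 0.0505 and 0.303, and the log2 difference over all settings was 0.24 to 0.32. Without the 3 libraries with vomeronasal reads 1 homozygous mouse was left, and its log2 difference was 0.32 from the 2 remaining heterozygous and 0.23 from the wild type mice. Against wild type mice no setting passed 0.05, and the lowest adjusted p was 0.0739, from DESeq2 with default settings.

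**Figure D3:**
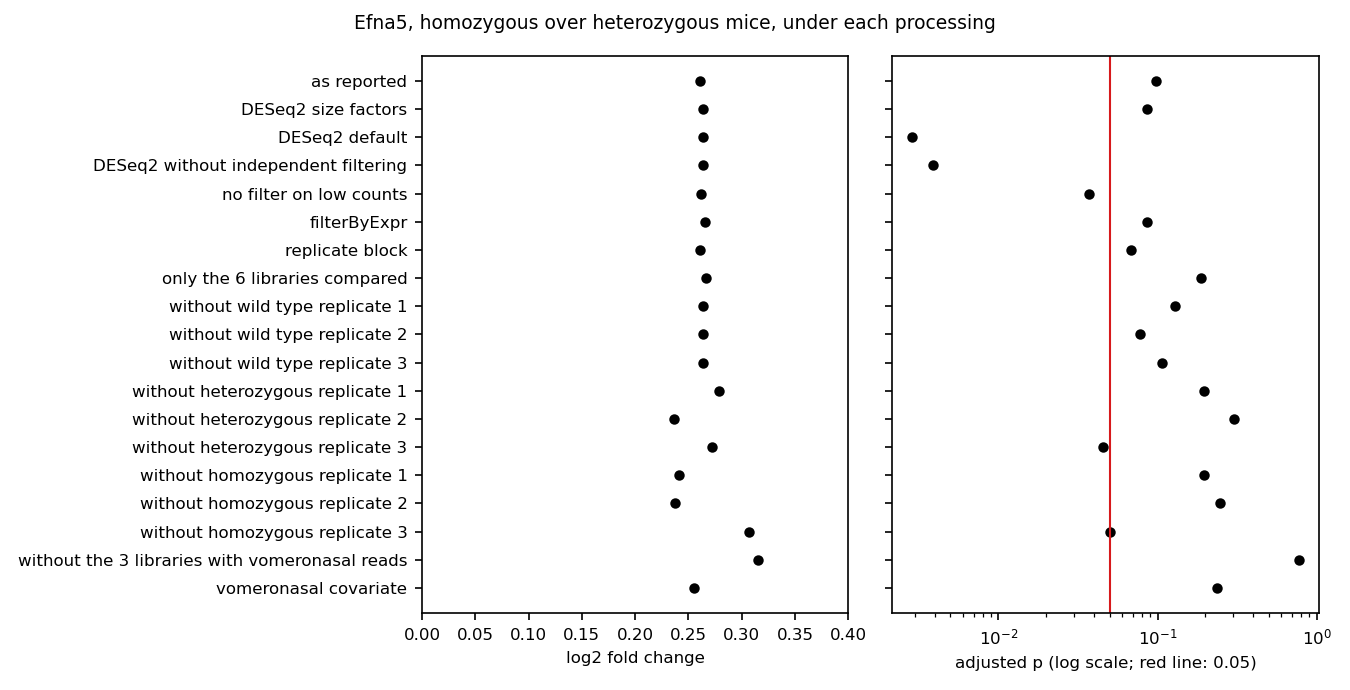
Efna5 in homozygous over heterozygous mice under each processing setting: log2 fold change (left) and adjusted p on a log axis (right, red line at 0.05). The log2 difference stays between 0.24 and 0.32, and the adjusted p lies on both sides of the line; the setting without the 3 libraries with vomeronasal reads holds 1 homozygous mouse.

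Marker lists were read beside the values of Efna5. Of 20213 genes tested, 10063 were higher and 10149 lower in homozygous than in wild type mice. An unadjusted p under 0.05 was reached by 9.26% of them in edgeR's test. Of 10 markers of immature OSNs, 9 were higher than in wild type mice (median log2 0.096) and all 10 higher than in heterozygous mice (median log2 0.086), and 0 passed the adjusted test. Their sums were 3328 to 3387 CPM in wild type, 3256 to 3559 in heterozygous and 3536 to 3612 in homozygous libraries. Gap43, a growth cone protein of immature OSNs, measured 264, 272 and 280.2 CPM in wild type, 259.7, 261 and 286 in heterozygous and 298, 279 and 296 in homozygous mice. Of 8 connective tissue markers, 7 were lower in homozygous than in wild type mice (median log2 -0.099), with sums of 12049 to 13815 CPM in wild type, 12761 to 14982 in heterozygous and 11745 to 12822 in homozygous libraries. All 8 markers of respiratory ciliated cells were lower in homozygous than in wild type mice (median log2 -0.078), with sums of 661 to 729 CPM in wild type, 594 to 781 in heterozygous and 598 to 651 in homozygous libraries. The 5 tested markers of vomeronasal sensory neurons were all higher in homozygous than in wild type mice (median log2 0.22), 3 of them at an unadjusted p under 0.05 and 0 at an adjusted one. Their sums were 541 to 569 CPM in wild type, 544 to 571 in heterozygous and 590.3 to 621 in homozygous libraries, so that, as for Efna5, all 3 homozygous libraries were above the other 6. Gnao1, at 374 to 432 CPM per library, made up most of these sums. Calr4, another marker of this list, measured 3.91, 14.2 and 8.59 CPM in homozygous replicates 1 to 3 and 8.44 in heterozygous replicate 1. It measured 2.28 to 3.33 CPM in wild type and 2.87 and 2.44 in the remaining heterozygous libraries. Homozygous replicate 1 was thus below heterozygous replicate 1 for Calr4, whereas its marker sum was above. Vomeronasal receptor genes were also lower in homozygous replicate 1 (17.4 CPM) than in heterozygous replicate 1 (67.5 CPM). Trpc2, a defining gene of these neurons, was listed at 0 in all 9 libraries. Since vomeronasal receptor reads were counted in all 9, the 0 of Trpc2 does not show that these neurons were absent. Tfap2e, also on this list, measured only 0 to 1.14 CPM. The part of these cell types in the values of Efna5, Sema3f and Ncam2 was not tested. Markers of olfactory bulb neurons, where axons end, summed to 57.7 to 64.9 CPM in every library. Gad2 (20.3 to 25.6 CPM) and Reln (21.9 to 31.5 CPM) made up most of these sums. Th (0 to 0.488), Tbx21 (0.0356 to 0.580) and Gad1 (0.0813 to 0.735 CPM) were near 0.

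Among the adhesion molecules, Kirrel2 measured 611, 649.9 and 484 CPM in wild type, 615, 637 and 639 in heterozygous and 612, 488 and 588 in homozygous mice. Wild type replicate 3 and homozygous replicate 2 were low, and the other 7 libraries stood at 588 to 649.9 CPM. The 3 heterozygous libraries lay close together and above all 3 homozygous libraries, with a homozygous difference of -10.8% (log2 -0.16, SE 0.09, 95% interval -21.9% to 2.01%). The unadjusted p was 0.0898 and the edgeR adjusted p 0.554. Against wild type the log2 fold change was -0.05 (SE 0.09) in homozygous and 0.12 (SE 0.09) in heterozygous mice.

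The sign of the Kirrel2 difference between homozygous and wild type mice depended on single libraries. It was -0.16 on the log2 scale without wild type replicate 3 and 0.05 without homozygous replicate 2, the 2 low libraries. Without wild type replicate 2, the highest library, it was 0.04. The heterozygous difference from wild type was 0.00034 without wild type replicate 3. The difference between homozygous and heterozygous mice was -0.07 without homozygous replicate 2. Homozygous replicate 2 was also the library with the most vomeronasal receptor reads, while wild type replicate 3 stood at 16.2 CPM of them, within the range of the other libraries.

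Kirrel3, which is made in OSNs that differ from those rich in Kirrel2, measured 76.4, 74.0 and 70.2 CPM in wild type, 69.1, 75.6 and 77.8 in heterozygous and 70.6, 67.6 and 77.3 in homozygous mice. The genotypes overlapped, with log2 fold changes of -0.03 (SE 0.06) and 0.01 (SE 0.06) in homozygous and heterozygous mice against wild type. Its homozygous interval ran from -10.4% to 6.60%.

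Ncam2, also named OCAM, is a homophilic adhesion molecule that marks part of the epithelium and separates compartments of the glomerulus. It measured 79.1, 81.8 and 88.3 CPM in wild type, 86.7, 83.0 and 81.9 in heterozygous and 90.9, 86.3 and 90.3 in homozygous mice. The homozygous libraries were at the upper end but overlapped with both other genotypes. The difference from wild type was 7.36% in homozygous mice (log2 0.10, SE 0.05, 95% interval -0.148% to 15.4%), with an unadjusted p of 0.0543 and an edgeR adjusted p of 0.550.

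**Figure D4:**
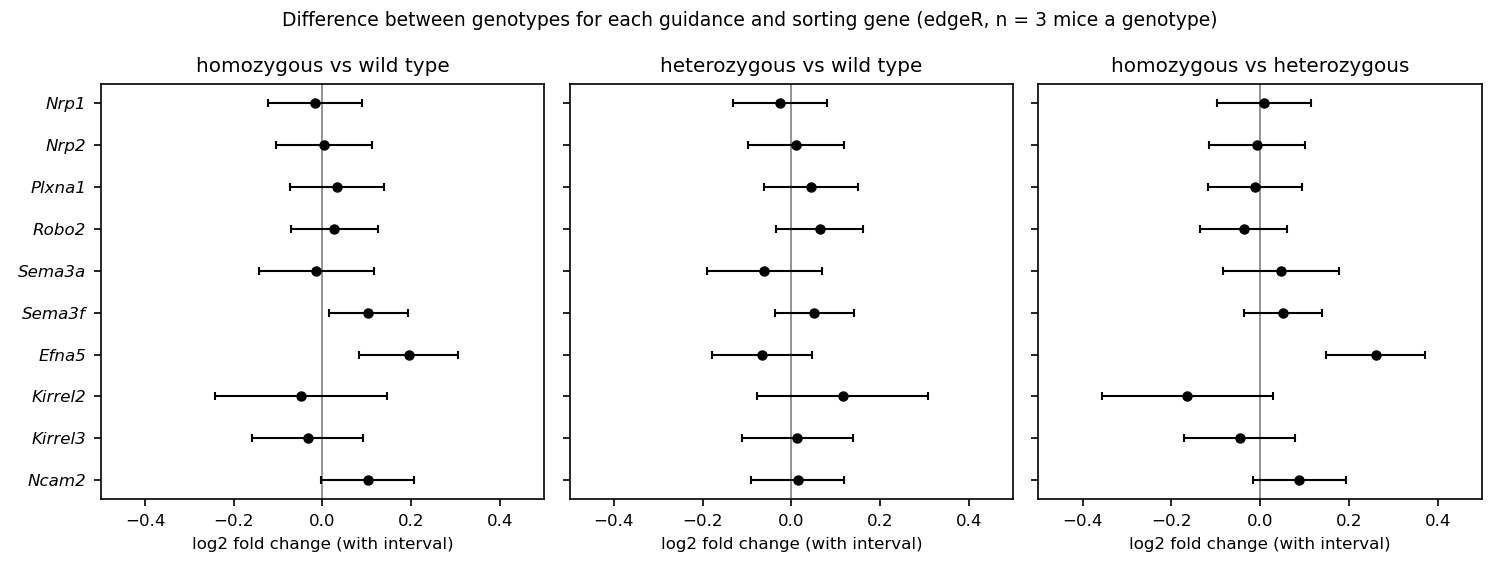
Log2 fold change of each gene with its 95% interval in the 3 comparisons of genotypes, from edgeR. The intervals of 8 of 10 genes include 0 in homozygous against wild type mice, all 10 do in heterozygous against wild type mice, and 9 do in homozygous against heterozygous mice.

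Levels of ligand and receptor genes, and of the paralogs Kirrel2 and Kirrel3, were compared across the 9 libraries for 4 pairs. The pairs were chosen after the values of the 10 genes had been seen. Exact permutation tests were 2-sided, with adjustment over the 4 pairs. Nrp1 and Sema3a gave a Pearson r of 0.34 (exact permutation p = 0.367, adjusted 0.489) and a Spearman rho of 0.40 (p = 0.291, adjusted 0.417). Leaving out the 2 libraries farthest from the median of Nrp1 gave r = -0.06. Nrp2 and Sema3f gave r = -0.02 (exact p = 0.960, adjusted 0.960) and rho = 0.05 (p = 0.912, adjusted 0.912), and r = 0.41 without the 2 farthest libraries. Efna5 and Epha5, the gene of an EphA receptor, gave r = -0.40 (exact p = 0.281, adjusted 0.489) and rho = -0.55 (p = 0.133, adjusted 0.417). Without the 2 libraries farthest from the median of Efna5, r was -0.88. Epha5 measured 36.4 to 56.1 CPM, and other EphA genes were not paired with Efna5. No value without the 2 farthest libraries was tested.

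Kirrel2 and Kirrel3 gave the highest correlation of the 4 pairs, r = 0.62 (exact permutation p = 0.0818, adjusted 0.327), with rho = 0.38 (p = 0.312, adjusted 0.417). Without the 2 libraries farthest from the median of Kirrel2 it was 0.04, so it rests on the 2 low libraries. In the 6 libraries with few vomeronasal reads, r was 0.62 for Nrp1 and Sema3a, -0.03 for Nrp2 and Sema3f, 0.66 for Kirrel2 and Kirrel3 and -0.72 for Efna5 and Epha5. These values were not tested.

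The genes whose levels were most like those of 4 of these genes were sought among 11606 genes with a mean of at least 10 CPM, by Pearson's r of log2 CPM over the 9 libraries. This is a description over libraries that share their depth and tissue makeup. Nrp1 was most like Dpys (r = 0.948), Tbc1d2 (0.932) and Cpn1 (0.921), and Nrp2 most like Trip10 (0.958), Bspry (0.957) and Zyx (0.956). Kirrel2 was most like Zfp385b (0.962), Pcx (0.951) and Ppp1r1b (0.948), and Kirrel3 most like Mtg2 (0.918), Zfp286 (0.913) and Rrp12 (0.902). Spearman's rho was 0.917, 0.783 and 0.733 for the genes of Kirrel2 and 0.967, 0.883 and 0.833 for those of Kirrel3. For the genes of Nrp1 and Nrp2 it was 0.8 to 0.917. None of these 12 genes is among the 10.

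The wider pathways were read in 7 lists of 72 tested genes, the 10 included. No gene was called in any comparison. Homozygous mice had 8 of these genes higher and 5 lower than wild type at an unadjusted p under 0.05, at a median log2 fold change of -0.0053, where 9.26% of all genes reached that p in either direction. In heterozygous against wild type mice this was 1 higher (Tenm2) and 0 lower, at a median of 0.026, against 3.25% of all genes. In homozygous against heterozygous mice it was 4 higher and 6 lower, at a median of -0.011, against 10.4% of all genes. Within these lists, the lowest adjusted p in both comparisons of homozygous mice was that of Efna5.

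Among the class 3 semaphorins, 1 of 7 was higher and 1 lower at an unadjusted p under 0.05 in homozygous mice. The lower was Sema3c, another secreted semaphorin, at 11.0 CPM in wild type, 11.3 in heterozygous and 8.25 in homozygous mice (log2 -0.41, SE 0.15, edgeR adjusted p = 0.431). Of 11 neuropilins and plexins none reached that p, and Plxna2 (log2 -0.09) and Plxna3 (log2 0.09) came closest. Of 7 Slits and Robos, 1 was higher and 3 lower at that p, against 9.26% of all genes in either direction. Slit2, a repellent for Robo axons, measured 86.2 CPM in wild type and 79.5 in homozygous mice (log2 -0.12, adjusted p = 0.447). Robo4, a receptor of blood vessel cells, measured 13.0 and 10.6 CPM (log2 -0.29, adjusted p = 0.413), beside 7 of 8 endothelial markers that were lower (median log2 -0.14), whose part in this was not tested.

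Of 21 ephrins and Eph receptors tested, 4 were higher and 0 lower at an unadjusted p under 0.05 in homozygous against wild type mice, at a median log2 of -0.031 for the list. Over all genes tested, 919 of 20213 were higher and 953 lower at that p. Efna3, another ephrin-A, measured 134 CPM in wild type, 138 in heterozygous and 148 in homozygous mice (log2 0.15, SE 0.06, edgeR adjusted p = 0.451). In the list of 4 Kirrel and nephrin genes, Nphs1 (log2 0.10) and Kirrel (log2 0.06) came closest, and none reached an unadjusted p of 0.05. Of 15 immunoglobulin adhesion molecules, 2 were higher: Nfasc, a protein of axon initial segments and nodes (87.2 and 98.5 CPM in wild type and homozygous mice, log2 0.18, adjusted p = 0.376), and Ncam1 (467 and 506 CPM, log2 0.11, adjusted p = 0.514). The largest log2 fold change, -1.17 for Cntn5, was that of a gene with 0 to 0.153 CPM per library. Of 7 cadherins and teneurins, Tenm3, a homophilic adhesion protein, was lower (114 CPM in wild type, 116 in heterozygous and 103 in homozygous mice, log2 -0.14, adjusted p = 0.377), and Pcdh10 measured 187, 188 and 210.0 CPM (log2 0.17, adjusted p = 0.592).

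**Figure D5:**
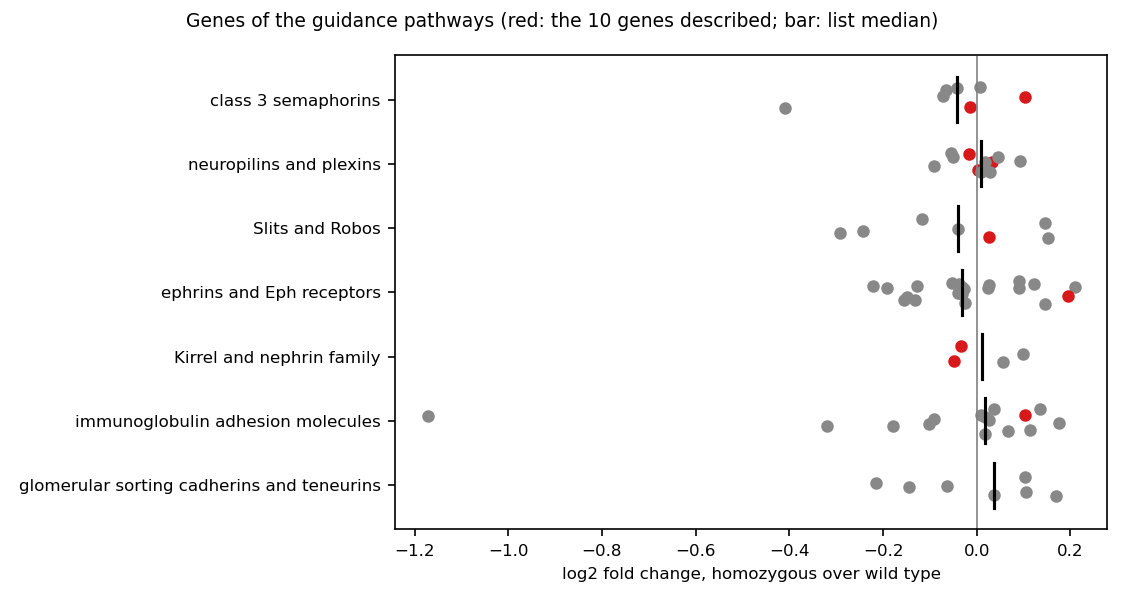
Log2 fold change in homozygous over wild type mice for each tested gene of the 7 guidance and adhesion lists (points; red, the 10 genes described here), with the median of each list as a bar. The list medians lie between -0.041 and 0.037, and the point at -1.17 is Cntn5.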

How the data were processed

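Whole MOE of 9 mice was profiled, 3 per genotype as the sample titles give it. Per the labels and the study's methods, the authors prepared polyA-selected directional libraries, trimmed reads (Trimmomatic 0.36), mapped them to mm10 with HISAT2 2.1.0, and deposited raw counts per gene. The submitters' processing notes name HTSeq 0.6.1p1 as counter and the study's methods name featureCounts; the annotation, strand setting and read length are not given in the sources used here. A deposited table of normalized counts was not used.

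The 5 rows naming no gene were left out, and 2 repeated symbols were kept apart. Genes with at least 10 counts over the 9 libraries were normalized by TMM and fitted with edgeR 4.0.16 in R 4.3.3, genotype being the only term, with Benjamini-Hochberg adjustment over all 20213 genes and a threshold of 0.05. CPM use TMM library sizes. Depth was 24583906 to 32631951 reads per library, so 3 reads equal 0.0916 to 0.122 CPM. Libraries of a genotype differed by more than counting noise (chi-square per degree of freedom at least 5.71). The study describes the mice as littermates. Gene models are GENCODE M21 and promoters RefSeq GRCm38.p6.

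Alternatives were DESeq2 1.42.0 (size factors, default test, no independent filtering), other filters, a replicate block, only the 6 libraries compared, each library left out, and vomeronasal reads handled by removal or as a covariate. The pipeline was tested on simulated data. Named genes are the 10, any pathway gene called, otherwise up to 2 per list by smallest p in homozygous against wild type mice. The 3 genes most like each of Nrp1, Nrp2, Kirrel2 and Kirrel3 are also named. Epha5, Gap43, Calr4, Cntn5 and Tenm2 were added after their values were seen. The members and lists were chosen with earlier results of these data known.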

Additional observations from a re-analysis of the deposited data

How the results depend on the processing

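The count of the 10 genes called stayed at 0 in both comparisons with wild type mice and for any difference, under every alternative run for them. In homozygous against heterozygous mice it was 1, Efna5, with DESeq2 default settings, DESeq2 without independent filtering and no filter on low counts. These settings called 130, 126 and 50 of all genes, where the reported fit called 23. When single libraries were left out, the count was 0 to 1. Of 540 single-gene values under the alternatives, 498 kept direction and side of the threshold. No gene with a reversed sign passed the test in either setting, and the cause was not tested.

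Without the 3 libraries with vomeronasal reads, 1 homozygous and 2 heterozygous mice remain, so the homozygous values are those of homozygous replicate 1 alone and say nothing about stability; log2 fold changes of opposite sign were 0.051 (Nrp1) and 0.072 (Kirrel2) in homozygous against wild type, -0.046 (Nrp2) and -0.010 (Ncam2) in heterozygous against wild type, and 0.050 (Nrp2) and -0.0060 (Sema3a) in homozygous against heterozygous mice. With vomeronasal reads as a covariate they were 0.057 (Nrp1), -0.048 (Nrp2), 0.0085 (Sema3a), 0.077 (Kirrel2) and 0.028 (Kirrel3) in homozygous and 0.0072 (Nrp1) and -0.014 (Nrp2) in heterozygous against wild type mice.

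Leaving out single libraries, the log2 fold change in homozygous against wild type mice ranged from -0.16 to 0.046 for Kirrel2, -0.090 to 0.010 for Kirrel3, -0.054 to 0.010 for Nrp1, -0.011 to 0.020 for Nrp2, -0.0097 to 0.077 for Plxna1 and -0.063 to 0.031 for Sema3a. In heterozygous against wild type mice it ranged from -0.027 to 0.062 for Kirrel3, -0.021 to 0.060 for Ncam2 and -0.046 to 0.059 for Nrp2. In homozygous against heterozygous mice it ranged from -0.027 to 0.037 for Nrp1, -0.056 to 0.050 for Nrp2, -0.052 to 0.035 for Plxna1 and -0.00061 to 0.093 for Sema3a.

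Libraries with the same replicate number did not deviate together in all pairs. Correlations between homozygous and heterozygous mice were 0.098, 0.50 and 0.53 for replicates 1 to 3. Those with wild type mice were 0.023 and 0.16 for replicate 1 and -0.30 to -0.20 for replicates 2 and 3. In 9 of 18 cases a library correlated best with its own number among the 3 of another genotype. With the replicate block, 0 of the 10 genes were called in each comparison, and Efna5 had a log2 difference of 0.26 (adjusted p = 0.0682) between homozygous and heterozygous mice.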
